A study of Homo sapiens with 4 samples.

Results

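The nuclear genes for mitochondrial ribosomal proteins were examined in the human pancreatic cancer line MiaPaca-2 after depletion of the arginine methyltransferase PRMT1. Members were all genes with a symbol starting MRPL or MRPS in the authors' deposited table, which holds 9 such genes among 858 genes in all. The study sequenced total RNA from 4 samples, 2 expressing a short hairpin that targets PRMT1 (shPRMT1) and 2 expressing a non-targeting one (shNTC), all grown in the same serum-supplemented medium. The labels give shPRMT1 as the only hairpin name against PRMT1, without a count of hairpin sequences, and name no rescue. They do not tell separate cultures from repeat samples of one culture, so the p-values may measure technical spread only. The deposited values are 1 ratio, its log2 value, an unadjusted p and an adjusted p per gene. Per-sample values are not analysed here, which leaves every ratio without a replicate error and the depth unknown. Expression levels were not used here, so the cell line's markers could not be checked.

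Mitochondria make a small set of respiratory chain proteins on ribosomes of their own. The RNA of these ribosomes is encoded by mitochondrial DNA, whereas every ribosomal protein is encoded in the nucleus, made in the cytosol and imported. The large (39S) subunit joins amino acids and guides the new chain to the inner membrane, and the small (28S) subunit decodes the messenger RNA. MRP symbols were given before structures were known, and MRPS30 carries a small subunit name although its protein sits in the large subunit. Members were therefore divided by structure, with MRPS30 in the large subunit.

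The table lists only genes with an unadjusted p under 0.05, so a member is in it because its p fell under that value, and these p-values support nothing further about the group. The adjusted p-values imply that 7640 genes were tested, and the authors' deposited table holds 11.2% of them (6.56% lower and 4.67% higher in shPRMT1). GENCODE 29 has 78 protein-coding genes with an MRPL or MRPS symbol, and the 9 in the authors' deposited table are 11.5% of these, close to the share of all tested genes. The other 69 either had p of 0.05 or more or were not tested, and these cases cannot be told apart. Of the 9 listed members, 5 were lower and 4 higher in the authors' deposited table. None had an adjusted p under 0.05, against 1 gene (0.0131%) of all those tested in the authors' deposited table. The adjusted p was 0.431 for MRPL2 and MRPL23 and 0.432 for the other 7 members in the authors' deposited table. The numerator of the ratio is not named. It was read as shPRMT1 over shNTC because the authors' deposited table gives PRMT1 itself a ratio of 0.356 (unadjusted p = 0.0156, adjusted p = 0.411). Under the opposite reading every direction below would reverse.

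Short sequences around the starts of member genes are shown first. Nuclear genes for mitochondrial proteins are known for binding sites of NRF1 (nuclear respiratory factor 1), of the ETS family and of YY1. Whether such sequences relate to the ratios was not tested. RefSeq promoter sequences (GRCh38.p14, 250 bases before to 50 after the gene's start) matched 6 of the 9 members, and MRPL2, MRPL13 and MRPL23 had no entry. The build differs from the hg19 named for the authors' processing, so these coordinates apply to the RefSeq sequences alone. Capitals mark the letters of a match. The ETS letters searched were CCGGAAG. The NRF1 letters were the 10 in capitals for MRPL17 below, with any base at the sixth, and the YY1 letters were those in capitals for MRPS30, all searched on both strands. In the NRF1 matches and ETS matches below, the first matched base lies 40 bases before the RefSeq start in MRPS9, 63 before it in MRPL48 and 5 before it in MRPS12. The last letters of the MRPS12 match lie past the start. Both YY1 matches lie after the start, and their letters hold an ATG.

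MRPS9, NRF1, chr2:105038019-105038048, plus strand: cgcgccattaGCGCCTGCGCcgtctctagg
MRPL48, ETS, chr11:73787801-73787827, plus strand: atttcagaagCTTCCGGaactaaaatg
MRPS12, ETS, chr19:38930929-38930955, plus strand: cggatagcgcCCGGAAGaggctagaag
MRPS18B, YY1, chr6:30617853-30617882, plus strand: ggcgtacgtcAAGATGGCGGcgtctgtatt
MRPS30, YY1, chr5:44808950-44808979, plus strand: atcgcgggcaAAGATGGCGGcggccaggtg

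Longer windows are shown for MRPL17, the lowest member, and for MRPS30, a higher member of the same subunit. Each is the 125 bases nearest the RefSeq start that no GENCODE 29 exon covers. Capitals mark the NRF1 match in MRPL17, whose first base is 81 bases before the start, and in MRPS30 the pair of CCAAT boxes (CCAAT, here read on the other strand), which start 139 and 55 bases before it.

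MRPL17, chr11:6683402-6683526, minus strand: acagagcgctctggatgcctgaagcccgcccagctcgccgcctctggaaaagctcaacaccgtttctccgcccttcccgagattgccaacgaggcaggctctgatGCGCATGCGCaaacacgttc
MRPS30, chr5:44808800-44808924, plus strand: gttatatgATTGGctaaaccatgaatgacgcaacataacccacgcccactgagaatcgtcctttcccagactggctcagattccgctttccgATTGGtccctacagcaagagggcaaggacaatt

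Each of the NRF1, ETS and YY1 letter strings was found in 2 of the 6 member promoters. NRF1 letters were in MRPL17 and MRPS9, ETS letters in MRPL48 and MRPS12, and YY1 letters in MRPS18B and MRPS30. In each pair, 1 gene was lower and 1 higher in the authors' deposited table, as the values below show. MRPS18B, the lower gene of the YY1 pair, had a log2 ratio of −0.06, whose sign turns if every log2 value is raised by 0.1. With 2 genes per letter string, a relation between the letters and the direction was not tested. Across 27305 RefSeq promoters of the same length, 6.28% held the NRF1 letters, 10.7% the ETS letters and 1.28% the YY1 letters. The shares over the 69 MRPL and MRPS promoters with an entry were 11.6%, 42.0% and 18.8%. CCAAT was in MRPS12, MRPS30 and MRPS9 (35.7% of all promoters and 20 of the 69 of the family). The GC-rich letters GGGCGG of SP factors were in MRPL17, MRPS12 and MRPS9 (44.6% of all promoters and 60.9% of the family). The E-box CACGTG was in no member promoter (7.43% of all promoters). No matches overlapped in a member. A match of letters describes the sequence and is not a binding site.

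The large subunit had 6 listed genes of 52 (11.5%, beside 11.2% of all tested genes). These split evenly, 3 lower and 3 higher in the authors' deposited table. They also held the widest spread of the members, from a log2 ratio of −0.44 to 0.80, with a median of 0.04, against a median of −0.12 over all 858 genes of the authors' deposited table. The value of 0.04 falls between the lower and the higher genes, and with subunits by symbol it turns to −0.27.

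MRPL2 (ENSG00000112651.7) is the counterpart of bacterial L2, one of the most conserved ribosomal proteins, which lies near the peptidyl transferase centre. It was the highest member, with a ratio of 1.74 (log2 ratio 0.80, unadjusted p = 0.0203) in the authors' deposited table. By absolute log2 ratio it stood 84th of 858 in the authors' deposited table. MRPL48 (ENSG00000175581.9), a protein of the central protuberance without a bacterial counterpart, was next with a ratio of 1.51 (log2 ratio 0.59) in the authors' deposited table. Its unadjusted p of 0.0430 was the nearest of all members to the 0.05 limit of the authors' deposited table. MRPS30 (ENSG00000112996.5), also without a bacterial counterpart and first named as a programmed cell death gene, had a ratio of 1.27 (log2 ratio 0.35, unadjusted p = 0.0308) in the authors' deposited table. These 3 genes were thus 27.1% to 74.3% higher in shPRMT1 by the ratios of the authors' deposited table.

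On the lower side, MRPL17 (ENSG00000158042.8), the counterpart of bacterial L17, had 0.737 as its ratio (log2 ratio −0.44, unadjusted p = 0.0296) in the authors' deposited table. MRPL23 (ENSG00000214026.6) is the counterpart of bacterial L23, which lines the rim of the exit tunnel where the new chain emerges. Its ratio was 0.832 (log2 ratio −0.27, unadjusted p = 0.0204) in the authors' deposited table. MRPL13 (ENSG00000172172.3), the counterpart of bacterial L13, had almost the same ratio of 0.832 (log2 ratio −0.27, unadjusted p = 0.0332) in the authors' deposited table. Ratios of these 3 genes in the authors' deposited table correspond to differences between −16.8% and −26.3% in shPRMT1. The 3 higher genes of the large subunit had a median log2 ratio of 0.59 and the 3 lower ones of −0.27 in the authors' deposited table. Over all genes of the authors' deposited table these medians were 0.28 for higher genes and −0.28 for lower genes.

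**Figure D1:**
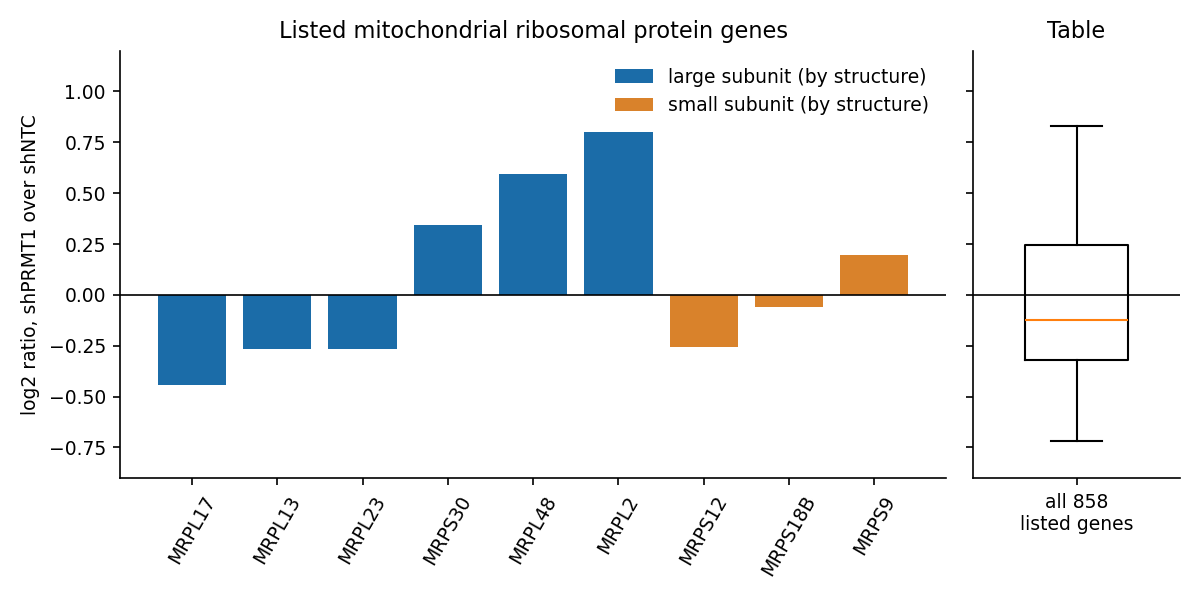
Bars give the log2 ratio (shPRMT1 over shNTC) of the 9 listed genes in the authors' deposited table, blue for the large and orange for the small subunit by structure; at the right, the box spans the quartiles of all 858 listed genes, its line is their median and its whiskers reach the 5th and 95th percentiles. Large subunit genes stand on both sides of 0, from −0.44 to 0.80, and the small subunit genes lie between −0.26 and 0.20.

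The small subunit had 3 listed genes of 30 (10.0%, beside 11.2% of all tested genes), with 2 lower and 1 higher in the authors' deposited table. Their median log2 ratio was −0.06. All 3 were within 0.26 of 0 on the log2 scale of the authors' deposited table, a narrower range than in the large subunit, and the difference between subunits was not tested. These ranges rest on 3 and 6 genes. With subunits by symbol, which moves MRPS30, the small subunit reaches 0.35, and its median turns to 0.07.

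MRPS12 (ENSG00000128626.7) is the counterpart of bacterial S12, a protein of the decoding centre in which streptomycin resistance arises in bacteria. It had a ratio of 0.837 (log2 ratio −0.26, unadjusted p = 0.0409) in the authors' deposited table. MRPS18B (ENSG00000204568.7) is one of a trio of human proteins related to bacterial S18. Its ratio of 0.960 (log2 ratio −0.06, unadjusted p = 0.0385) was the closest to 1 of all members in the authors' deposited table, a difference of −3.96%. By absolute log2 ratio it stood 837th of 858 in the authors' deposited table, and its sign turns if every log2 value is raised by 0.1. Its paralogs MRPS18A, in the large subunit, and MRPS18C were not listed. MRPS9 (ENSG00000135972.4), the counterpart of bacterial S9, whose tail touches the transfer RNA in the peptidyl site, was the 1 higher gene of this subunit. It had a ratio of 1.15 (log2 ratio 0.20, unadjusted p = 0.0339) in the authors' deposited table.

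Taken as 1 group, the members did not share a direction. Of the 9 members 55.6% were lower, against 58.4% of all 858 genes of the authors' deposited table. Their median absolute log2 ratio of 0.27 lay beside 0.28 for all genes of the authors' deposited table. Their unadjusted p-values ran from 0.0203 to 0.0430 in the authors' deposited table. None of the 9 had an unadjusted p under 0.01, whereas 191 genes (22.3%) did over the whole of the authors' deposited table. All of these p-values had already passed the cut at 0.05, and with 9 genes this difference was not tested. Cytosolic ribosomal proteins, the corresponding genes of the cytoplasmic ribosome, had 7 listed genes of 87 by symbol (8.05%, beside 11.2% of all tested genes), 5 lower and 2 higher. The 87 are all annotated symbols of this kind, and how many of them were tested is unknown. The log2 ratios of the 7 listed genes ran from −0.16 to 0.22 in the authors' deposited table, and this range was not tested against that of the mitochondrial genes.

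**Figure D2:**
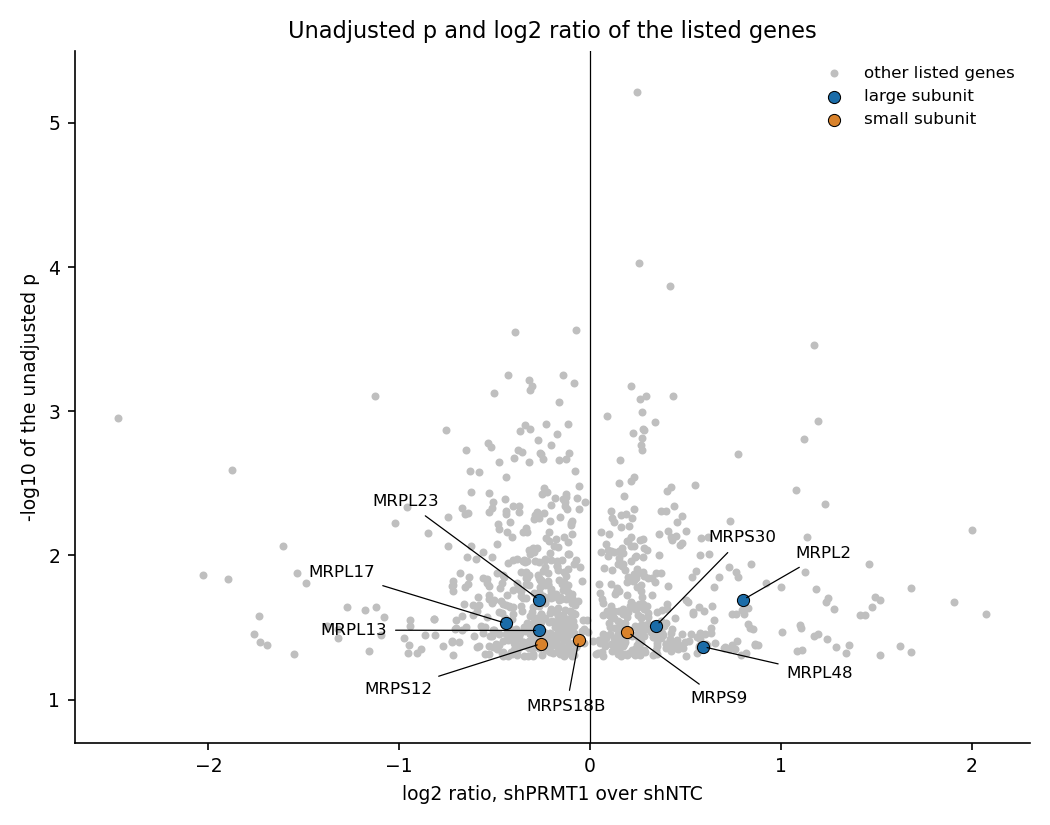
Each point is a gene of the 858 in the authors' deposited table, placed by its log2 ratio (shPRMT1 over shNTC) across and −log10 of its unadjusted p upwards; members are blue (large subunit) and orange (small subunit), other genes grey. The 9 members lie low on the upward axis, at unadjusted p between 0.0203 and 0.0430 (median 0.0332, against 0.0250 over all listed genes), and on both sides of a ratio of 1. The difference in p was not tested.

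The ribosome works with other nuclear-encoded factors, and the genes of these steps were followed with lists of 245 genes in all. Of these, 15 (6.12%) were listed, 9 lower and 6 higher, beside 11.2% of all tested genes. How many of the 245 were tested is unknown.

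For ribosome assembly, 1 of 28 genes (3.57%, beside 11.2% of all tested genes) was listed. This was NGRN (neugrin), a factor needed for the large ribosomal RNA of mitochondria, with a log2 ratio of −0.17 (unadjusted p = 0.0118) in the authors' deposited table. For translation factors, 1 of 19 genes (5.26%) was listed. GUF1, the mitochondrial counterpart of the bacterial elongation factor LepA, had a log2 ratio of 0.34 (unadjusted p = 0.00119) in the authors' deposited table, the lowest unadjusted p among all genes of these lists.

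Of the 20 genes for mitochondrial tRNA synthetases and the glutaminyl-tRNA amidotransferase, 3 were listed (15%, beside 11.2% of all tested genes). LARS2, which charges leucine tRNA, had a log2 ratio of 0.28 (unadjusted p = 0.00892) in the authors' deposited table. The threonine enzyme TARS2 had −0.20 and the arginine enzyme RARS2 −0.11 on the log2 scale of the authors' deposited table. SARS2, the serine enzyme whose gene starts beside MRPS12 on the other strand, was not listed.

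Maintenance of mitochondrial DNA and processing of its RNA had 4 of 35 genes listed (11.4%, beside 11.2% of all tested genes), 2 lower and 2 higher. TRNT1, which adds the CCA end to tRNA, had a log2 ratio of −0.43 (unadjusted p = 0.0112) in the authors' deposited table. TFAM, which packages mitochondrial DNA and starts its transcription, had −0.14 (unadjusted p = 0.0349) on the log2 scale of the authors' deposited table. The helicase SUPV3L1 of the RNA degradosome had 0.11 and ELAC2, which cuts the 3′ end of tRNA precursors, had 0.10 on the log2 scale of the authors' deposited table.

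Among nuclear genes of the respiratory complexes and ATP synthase, 4 of 76 were listed, all lower in the authors' deposited table. These 4 are 5.26% of the list, beside 11.2% of all tested genes listed in either direction and 6.56% listed lower. None was listed higher, beside 4.67% of all tested genes. The authors' deposited table has 58.4% of its genes on the lower side. The complex I subunits NDUFS8 and NDUFC2 had log2 ratios of −0.25 and −0.13 in the authors' deposited table. SDHD of complex II had −0.21 (unadjusted p = 0.00173) and ATP5PB of ATP synthase, named ATP5F1 there, −0.09 on the log2 scale of the authors' deposited table. Of 39 genes for import, folding and proteolysis, 2 were listed (5.13%, beside 11.2% of all tested genes). CLPX, a subunit of the matrix protease ClpXP, had 0.18 and the chaperone TRAP1 had 0.09 on the log2 scale of the authors' deposited table. None of the 15 protein or ribosomal RNA genes of mitochondrial DNA was listed, nor any of 13 regulators of mitochondrial biogenesis such as NRF1, GABPA and YY1. At the share of all tested genes, 1.68 of these 15 and 1.46 of these 13 would be listed, so counts of 0 lie near that share. The adjusted p of all 15 listed genes among the 245 lay above 0.05 in the authors' deposited table.

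**Figure D3:**
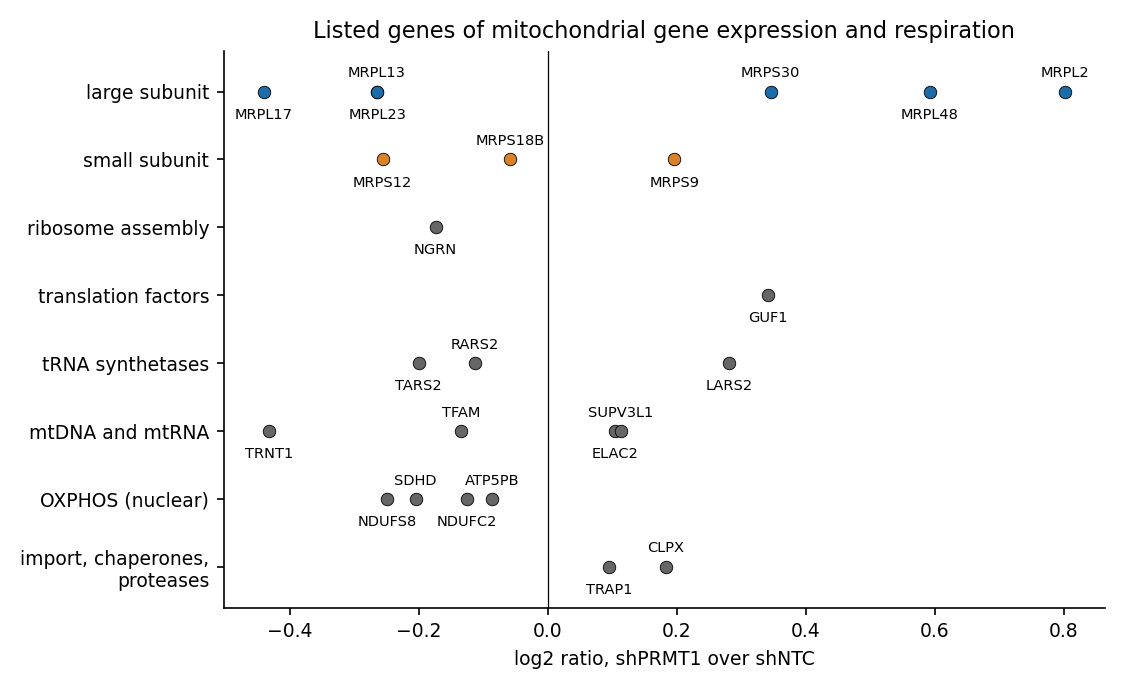
Each point is a listed gene of mitochondrial gene expression, respiration or protein import, placed by its log2 ratio (shPRMT1 over shNTC) in the authors' deposited table, with 1 line per gene list. Both ends of the range, MRPL17 at −0.44 and MRPL2 at 0.80, are large subunit genes, and the 4 respiratory genes are all below 0, as are 58.4% of all listed genes.

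**Figure D4:**
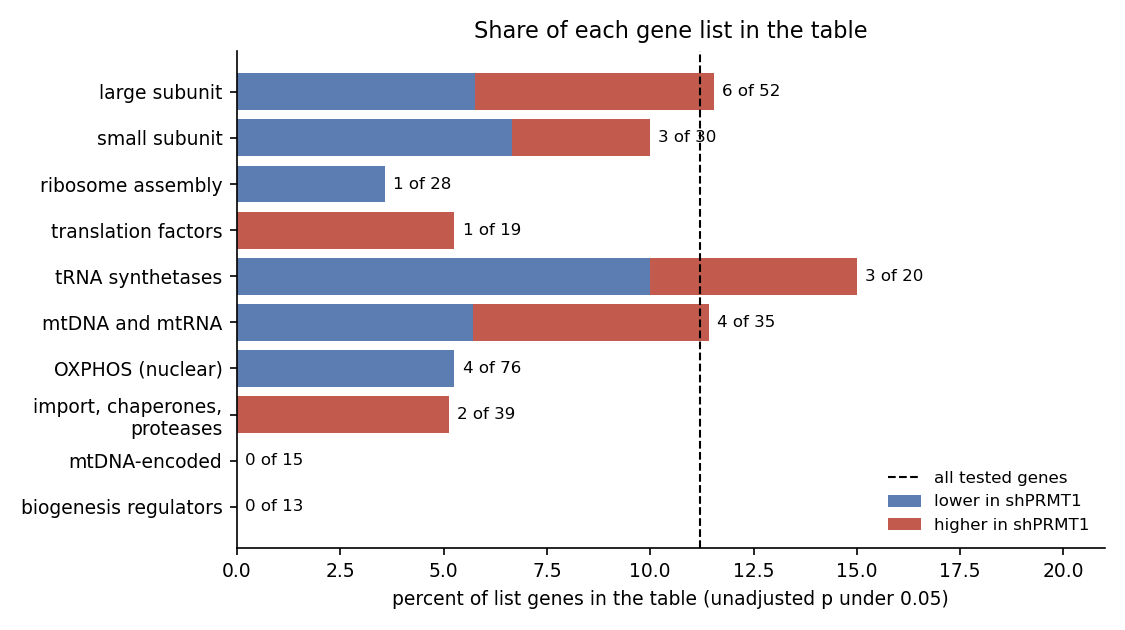
Bars give the percent of each gene list in the authors' deposited table (unadjusted p under 0.05), split into lower (blue) and higher (red) in shPRMT1, with the count beside each bar and a dashed line at the 11.2% of all tested genes. The large subunit, with 6 of 52 genes, is at 11.5% and the small subunit, with 3 of 30, at 10.0%, both beside the line.

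Members had short transcripts, as had the 78 MRPL and MRPS genes of GENCODE 29 (median 1722 nt). The longest GENCODE 29 transcripts of the members had a median of 1610 nt, from 919 nt in MRPL23 to 4331 nt in MRPS30, against 3340.5 nt over the 846 listed genes with a length. The share of lower genes differed between lengths: from the shortest to the longest of 5 groups of about equal size, the authors' deposited table gave 67.6%, 75.9%, 64.3%, 47.9% and 37.9% on the lower side. Of the members, 5 were in the shortest group, 3 lower and 2 higher, and 3 in the next group, 2 lower and 1 higher. MRPS30, higher in shPRMT1, was the 1 member in the fourth group. The median length was 1610 nt for the 5 lower and 1755 nt for the 4 higher members. MRPL2 (1588 nt) and MRPL48 (1922 nt) had the largest ratios of the members in the authors' deposited table and are in those 2 groups of short transcripts. The part of length in these ratios was not tested.

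**Figure D5:**
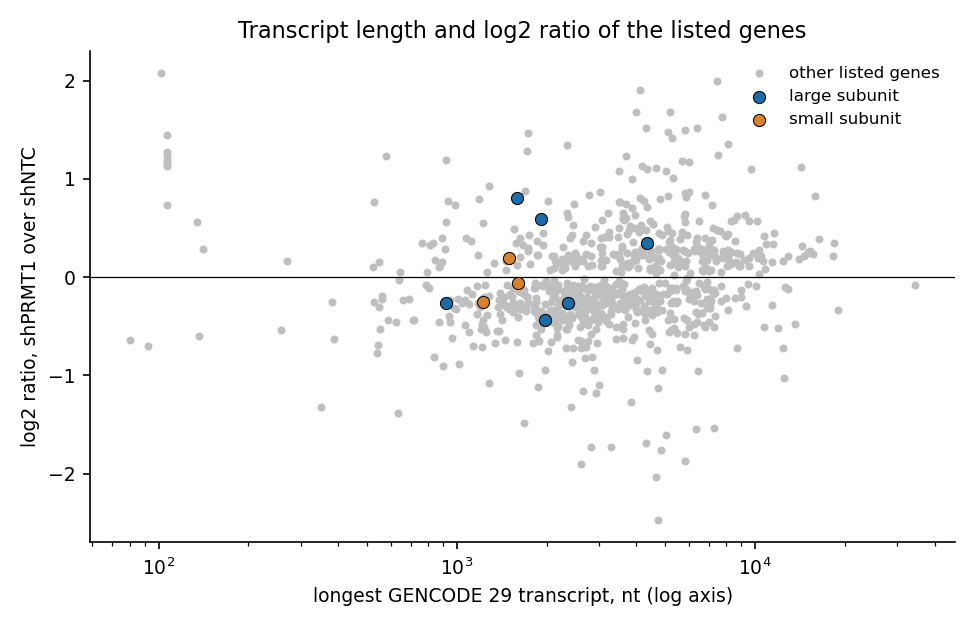
Each point is a listed gene with its longest GENCODE 29 transcript across (nt, log axis) and its log2 ratio (shPRMT1 over shNTC) in the authors' deposited table upwards; members are blue (large subunit) and orange (small subunit). Of the 9 members, 8 lie between 919 and 2367 nt on both sides of 0, and MRPS30 stands apart at 4331 nt.

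Other annotated genes lie close to most members. A gene on the other strand overlaps 7 of the 9 in GENCODE 29, and MRPL17 and MRPS30 are the exceptions. For 5 members a gene on the other strand starts within 1000 bases of their own start. These partners are MTBP for MRPL13, SARS2 for MRPS12, PPP1R10 for MRPS18B, and antisense RNAs for MRPS9 and MRPS30. None of the 11 neighbours found in this way is in the authors' deposited table. Whether the authors' quantification used strand is not given in the sources used here, and without strand the reads of overlapping genes cannot be told apart. For MRPL2 the longest stretch aligned with a KLC4 transcript spans 282 nt of its 1588 nt longest coding transcript. The longest stretch of MRPS9 aligned with the antisense RNA UTAT33 spans 172 of 1500 nt. Only the longest stretch per pair of genes was kept, so the full overlaps may be larger. MRPL48 also shares 440 nt at 93.0% identity with its pseudogene MRPL48P1. Shorter stretches of MRPL48, 144 to 149 nt at 90.3% to 90.6% identity, also match transcripts of AL022322.2, KIAA2012, POU5F1 and SPPL2A. Whether reads of these stretches were assigned to more than 1 gene was not examined, so any effect on the ratio of MRPL48 is unknown. No processed pseudogene reached 90% identity over 100 nt for the other 8 members.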

How the data were processed

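RNA sequencing values of 2 shPRMT1 and 2 shNTC samples were used as deposited. The submitters' processing notes name hg19, HISAT2 2.2.1, edgeR 3.36.0, StringTie 2.2.1, deepTools and Trim Galore 0.6.7, without the order of use. The authors deposited for each gene a linear ratio (fold change) with its log2, and a p-value with its adjusted form (q-value). Which test, normalization and filter gave them is not given in the sources used here. In the labels, the extraction text speaks of fixed chromatin and an antibody as well as of a total RNA kit, and the samples were taken as RNA by their molecule and library source. Sample values were not used here, so the design's count model was replaced by its stated alternative, a description with no test.

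The number of tests was recovered from p, rank and adjusted p: each of 52 runs with one adjusted p gave 7640 within 0.01. In 50 of 50 simulated tables, the step returned the number each was made with. Those tables were built with the formula that the step inverts, so they check the calculation only. Members and lists were chosen with earlier results of these data known. The genes named are every member, PRMT1 and every listed gene of 10 lists (327 genes, all matched by symbol or gene identifier); neighbouring, paralogous, pseudogene, similar and unlisted regulator names were added after their values were seen. Lengths came from GENCODE 29, matched for 846 of 858 genes (98.6%). Similar transcripts were sought with BLAST 2.17.0 (at least 90% identity over 100 nt), promoters came from RefSeq GRCh38.p14 (1 per symbol, alternate loci left out), and calculations used Python 3.11.15, numpy 2.4.6, pandas 2.3.3 and matplotlib 3.10.9. Alternatives covered p thresholds, a size threshold, a shift of all log2 values, and the definition of members and subunits.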

Additional observations from a re-analysis of the deposited data

How the results depend on the processing

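The counts of 5 lower and 4 higher members both became 0 at an unadjusted p under 0.01 and at the adjusted threshold of 0.05; the test behind the authors' deposited table is not known, and all 9 pass at an unadjusted p under 0.05. The counts stayed within 1.5 times with an absolute log2 ratio of at least 0.2 (4 and 3), with all log2 values raised by 0.1 (4 and 5) or lowered by 0.1 (5 and 4), and with members defined by structure (5 and 4). Raising all log2 values by 0.1 turned MRPS18B and the medians of all members and of the small subunit to 0.042, and moved that of the large subunit to 0.14. Lowering them by 0.1 gave −0.16, −0.16 and −0.060 for all members, the small and the large subunit. With subunits by symbol, which moves MRPS30, the medians reversed to −0.27 (large) and 0.069 (small). These medians carry no direction. A background of protein-coding genes only and all alternatives on sample values were not run, since neither the types of unlisted genes nor per-sample values are analysed here. No paired analysis was possible because the deposited columns carry no replicates. Depth and expression levels are unknown, so the precision of each ratio is too.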
